A study of Mus musculus with 18 samples.

Results

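Histone genes were taken from the deposited gene tables by symbol: every row whose symbol begins with H1f, H2ac, H2bc, H3c, H4c, H2az, H3f, H2ax, H2bu, H2al or Macroh2a. The rule found 98 of 21899 genes and used no measured value. Of these, 64 are replication-type genes, 9 are replacement genes (H1f0, H1f10, H2ax, H2az1, H2az2, H3f3a, H3f3b, Macroh2a1 and Macroh2a2) and 25 are genes known mainly from the germline. RNA came from inguinal white adipose tissue, a fat depot under the skin, of male C57BL/6J mice that carry no engineered allele in the labels. One arm had received cells of LLC, the Lewis lung carcinoma line of the mouse, under the skin, and the control arm phosphate-buffered saline (PBS). The 18 libraries form 4 groups: at day 7, 4 PBS and 5 LLC libraries, and at day 21 again 4 PBS and 5 LLC libraries. Day 7 is labelled pre-cachexia and day 21 cachexia, which is the tumour-driven wasting of fat and muscle; an age of the mice is not given in the labels. The titles number the samples within a group and do not say that each is a separate mouse, so the spread behind each p-value is that between samples and may in part be technical.

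Histones are the proteins around which DNA is wound. The replication-type genes lie mostly in large clusters and are switched on in S phase, when new DNA needs new nucleosomes. Their main message carries no poly(A) tail: it ends just after a short stem-loop in the RNA, which is bound by the stem-loop binding protein SLBP and cut by a machinery that uses the U7 small nuclear RNA. The replacement genes are made outside S phase too, from ordinary polyadenylated messages, and their proteins (H3.3, H2A.Z, macroH2A, linker histone H1.0) are exchanged into chromatin at any time. Some replication-type genes can also give polyadenylated messages, which have been described in cells that have stopped dividing and have differentiated. The libraries here were made from RNA caught by its poly(A) tail, which the stem-loop form lacks. Which form the reads of each gene came from was not tested. The values are therefore not taken as a measure of S-phase histone output.

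The stem-loop was searched in the annotated coding transcripts of GENCODE vM21 (GRCm38), because its place bears on what a poly(A) library can catch. The lines show the match in genes on which the results below turn; capitals mark the 16 bases of the stem-loop and lower case the 5 bases on each side, as RNA, 5′ to 3′.
H1f2: caaaaGGCUCUUUUCAGAGCCaccac
H2ac19: aaaaaGGCUCUUUUCAGAGCCaccca
H3c14: acaaaGGCUCUUUUCAGAGCCaccac
H4c8: ccaaaGGCCCUUUUCAGGGCCgccca
H4c9: uuaaaGGCCCUUUUUAGGGCCaccac
H2ax: acaaaGGCCCUUUUAAGGGCCaccac
In the genome the capitals lie at chr13:23739512-23739527 on the plus strand for H1f2, at chr3:96239784-96239799 on the minus strand for H2ac19 and at chr3:96247327-96247342 on the plus strand for H3c14. Those of H4c8 lie at chr13:23531458-23531473 (plus), of H4c9 at chr13:22040966-22040981 (minus) and of H2ax at chr9:44335240-44335255 (plus). Each lies in the annotated 3′ untranslated part of the message, between 24 and 58 bases after the stop codon in these 6 genes.

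The stem-loop consensus, sought over whole coding transcripts, matched 68 of 21901 protein-coding genes (0.31%). Of the 68, 47 were histone genes of the rule. In these 47 a match lay after the coding sequence, which was not checked for the other genes. The 47 comprised 45 of the 64 replication-type genes, 1 replacement gene (H2ax) and 1 germline gene (H1f6). The search saw only annotated sequence, and several replication-type genes without a match have short annotated transcripts. Examples are H4c12 (312 bases), H2bc13 (381 bases) and H2ac15 (393 bases). A missing match in such genes does not show that the stem-loop is absent. The commonest form, printed for H1f2, stood in 26 members of the H1, H2A, H2B and H3 families, while 7 H4 genes shared the form printed for H4c8. H2ax, a replacement H2A known from the response to broken DNA, has both a stem-loop and an annotated message that continues 822 bases past it. The other 8 replacement genes had no match.

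Annotated messages of replication-type genes ended in different ways. In 22 of the 45 genes with a match, the matching coding transcript ran over 100 bases past the stem-loop, 840 bases in H1f2 and 1167 bases in H3c14. Where several transcripts matched, the one running farthest past the stem-loop was taken. Of the 22, 15 held a poly(A) signal there. In the other 23 the matching transcript ended within 100 bases, as in H2ac19 (35 bases past). Among these 23, H4c8 held a poly(A) signal in the 46 bases past its stem-loop. The 22 genes with a continuing message had a median level of 0.812 TPM (a share of all transcripts that allows for gene length) over all libraries, against 0.123 TPM in the 23 that end near the stem-loop. The order is not strict, since H2ac19, of the second kind, was the highest replication-type gene at 197 TPM.

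**Figure D1:**
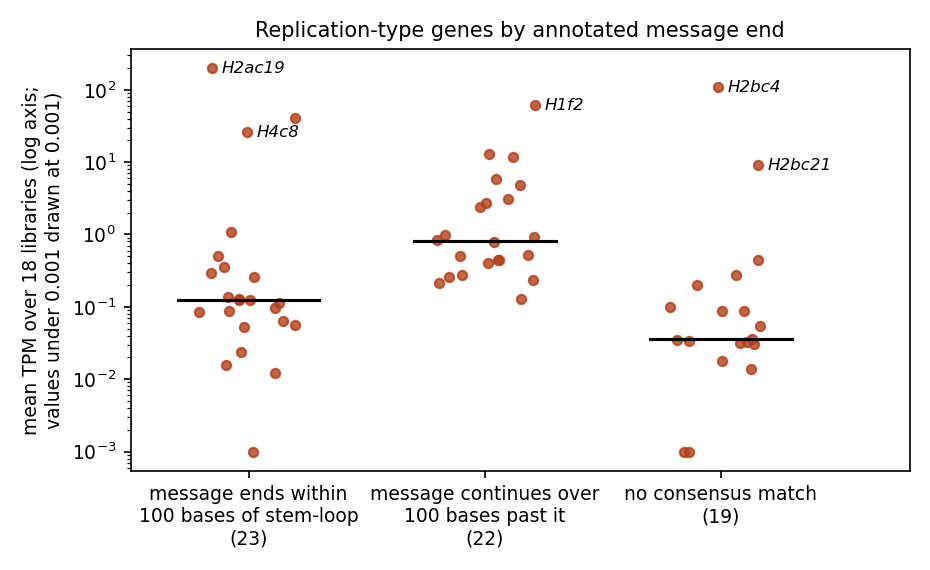
Mean TPM over 18 libraries (vertical log axis) of the 64 replication-type genes, 1 point a gene, grouped by the annotated end of the message; the line is the median of each group. The median is 0.812 TPM where the message continues past the stem-loop and 0.123 TPM where it ends near it, with H2ac19 far above its group. The group with no match includes genes whose annotated transcripts are short, so that little sequence could be searched.

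H2bc4, an H2B gene and the replication-type gene with the most reads (20488 counts over 18 libraries), had no match. Its single annotated transcript starts in an exon at chr13:23684199-23684621 that ends 9 bases after the stop codon, skips 7554 bases and ends in an exon at chr13:23692176-23692908. The annotated message thus leaves the coding exon before the distance at which the printed genes carry their stem-loop. H2bc21, another H2B gene without a match, has an annotated message of 2620 bases.

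Promoters were compared for the members that the RefSeq promoter table (GRCm38.p6) holds, 58 replication-type and 7 replacement genes, in windows of 300 bases on both strands. The letters CCAAT, known as the box bound by NF-Y, stood in 84.48% of the replication-type windows against 37.41% of all 32851 windows in the table. TATAAA stood in 55.17% against 13.62%, and the octamer ATTTGCAT, known from H2B promoters, in 18.97% against 1.74%. Of the 7 replacement windows, 4 held CCAAT and none held TATAAA or the octamer. The 250 bases upstream of the start are shown for H1f2 and H1f4, linker histone genes whose LLC and PBS libraries did not overlap at day 21 although neither passed the test (edgeR adjusted p = 0.0526 and 0.0751, below); capitals mark CCAAT and TATAAA.
H1f2: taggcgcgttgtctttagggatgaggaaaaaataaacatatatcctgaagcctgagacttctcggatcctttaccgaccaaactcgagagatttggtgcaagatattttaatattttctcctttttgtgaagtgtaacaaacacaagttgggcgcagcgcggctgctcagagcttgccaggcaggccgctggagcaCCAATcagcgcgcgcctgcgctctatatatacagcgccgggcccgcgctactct
H1f4: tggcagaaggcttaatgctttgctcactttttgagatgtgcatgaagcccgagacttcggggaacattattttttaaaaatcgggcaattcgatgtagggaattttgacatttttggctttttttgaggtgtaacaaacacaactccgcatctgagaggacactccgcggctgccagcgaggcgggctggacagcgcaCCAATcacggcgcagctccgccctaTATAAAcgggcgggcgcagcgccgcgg
The first lies at chr13:23738557-23738806 on the plus strand and the second at chr13:23622559-23622808 on the minus strand. H2bc4 is not among the promoters matched.

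Most histone genes gave few or no reads in these libraries. Of the 64 replication-type genes, 3 had no count in any library, 21 had 1 to 9 counts in all 18 together and 14 reached a mean of 1 TPM. All 9 replacement genes were above 0 in every library and above 1 TPM on average. The germline genes were nearly silent, with 20 of 25 at 0 in every library and 12 counts in sum. Total counts per library were 14566155 to 18969387, and the replication-type genes held 76178 counts over the 18 libraries against 221237 for the 9 replacement genes. The 3 genes H2bc4, H2ac19 and H1f2 held 69.46% of the replication-type CPM (counts relative to the library size, scaled by TMM), and H3f3a and H3f3b, both of which encode H3.3, held 62.22% of the replacement CPM.

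Reads of near-identical genes limit what single values mean. H2ac18 and H2ac19, a mirrored pair of H2A genes on chromosome 3, shared all their 50-base stretches with other annotated transcripts, so the split between them is the authors' estimate. H3c14 shared all of its stretches too, with the overlapping transcript Gm20634, and 34 of the 64 replication-type genes shared over 50% of theirs. H1f4 and H2bc6 overlap each other on 1 strand. H2bc4 shared 30.6%, H1f2 8.5%, H3f3b 6.9% and H1f0 5.7% of their stretches, while H2bc21 and H2az2 shared none.

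Some facts of the libraries touch every result below. The 15 adipocyte markers summed to between 26871 and 67481 CPM in every library, so the labelled tissue is present throughout. At day 21, PBS library 4 stood apart from PBS libraries 1 to 3, with 2125 CPM over 15 macrophage markers against 212.4 to 356 CPM in the others. LLC library 1 had the highest sum of 19 mitosis genes, 609 CPM against 13.4 to 50.8 CPM in the other 4 LLC libraries, and LLC library 3 held 2313 CPM over 12 B cell and lymph node markers against 4.93 to 10.3 CPM in those 4. Skeletal muscle markers ran from 3.05 to 8354 CPM over all libraries, within every group. No listed marker was at 0 in all 18 libraries. In bulk tissue, fewer cells of a type and less RNA per cell cannot be told apart, and the part of cell makeup in the results below was not tested.

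The first question was whether histone messages differed between LLC and PBS mice at day 7. They differed little: the summed replication-type level was 277, 247, 251 and 251 CPM in the 4 PBS libraries and 292, 259, 302, 212 and 269 CPM in the 5 LLC libraries, so the groups overlapped. The summed replacement level was 684, 650, 641 and 648 CPM with PBS and 665, 753, 714, 667 and 657 CPM with LLC, again overlapping. None of the 24 histone genes tested passed the threshold, a Benjamini-Hochberg adjusted p under 0.05 by edgeR's quasi-likelihood test, beside 0.00744% of all 13445 genes tested. DESeq2 and limma also called 0, and 2 of the 24 had an unadjusted edgeR p under 0.05, beside 1144 of all 13445 genes. The median log2 fold change was 0.04 over the 15 replication-type genes tested and 0.02 over the 9 replacement genes, against 0.0045 over all genes.

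The members of smallest p at day 7, none of them past the threshold, were 3 replacement and 2 replication-type genes. H1f10, a linker histone variant also called H1x, stood at -0.46 ± 0.17 on the log2 scale (SE; edgeR adjusted p = 0.538). Macroh2a1, which encodes a variant with a large extra domain, stood at 0.19 ± 0.07 (SE; edgeR adjusted p = 0.538), with all 5 LLC libraries (52.9 to 64.4 CPM) above all 4 PBS libraries (46.7 to 51.7 CPM). H3f3b, 1 of the 2 H3.3 genes, gave 0.17 ± 0.09 (SE), H3c14, an H3 gene, 0.31 ± 0.19 (SE) and H4c1, an H4 gene, -0.76 ± 0.48 (SE), with edgeR adjusted p between 0.637 and 0.715. In these 3 genes the groups overlapped.

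At day 21 the summed level of the replication-type genes was 368, 344, 318 and 302 CPM in the PBS libraries and 182, 170, 178, 133 and 181 CPM in the LLC libraries. No LLC value reached the lowest PBS value, and the means were 333 ± 29.1 CPM (SD, n = 4) and 169 ± 20.6 CPM (SD, n = 5), a log2 ratio of -0.98. Without H2bc4 the sums were 245 ± 30.9 CPM (SD, n = 4) and 121 ± 17.4 CPM (SD, n = 5), so the difference was not that of a single gene. Summed over the 50 replication-type genes under 1 TPM, the level was 7.26 ± 0.943 CPM (SD, n = 4) with PBS and 3.52 ± 1.51 CPM (SD, n = 5) with LLC, again without overlap. These sums are descriptions and were given no test.

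The replacement genes took another course. Their summed level at day 21 was 687, 701, 745 and 777 CPM with PBS and 834, 693, 838, 958 and 703 CPM with LLC, with overlapping groups. The ratio of replacement to replication-type CPM was 1.87, 2.04, 2.34 and 2.58 with PBS, and 4.58, 4.08, 4.71, 7.22 and 3.89 with LLC. All LLC libraries at day 21 were above every other library of the series, whose highest value was 3.15 in an LLC library of day 7. LLC library 4 had the highest ratio, with the lowest replication-type and the highest replacement sum of its group.

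**Figure D2:**
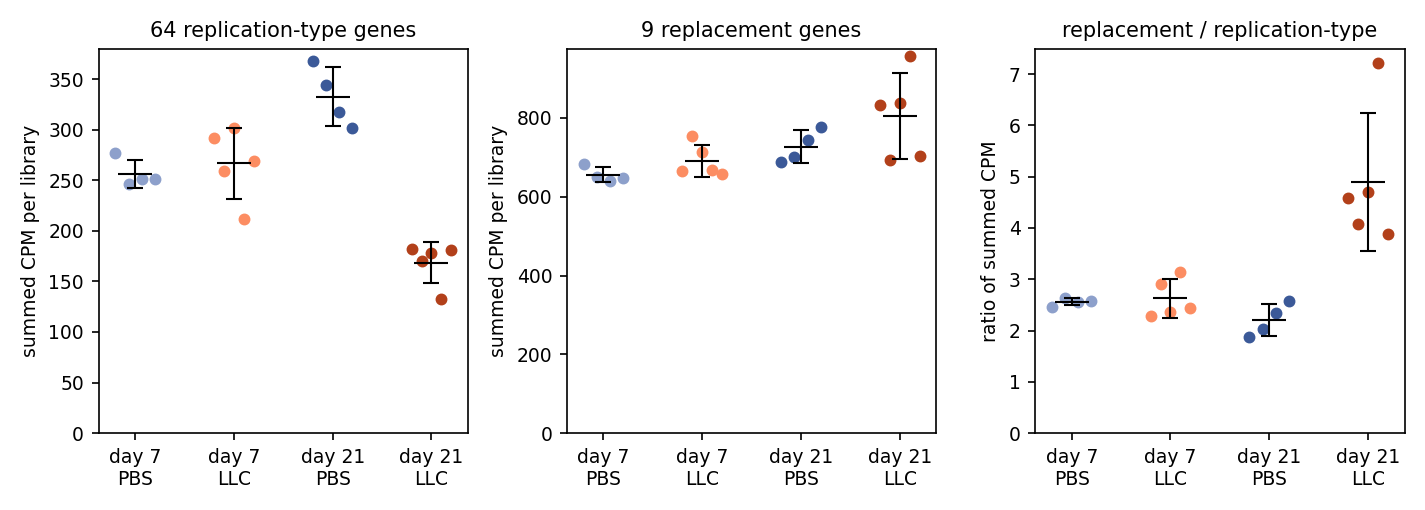
Summed CPM per library of the 64 replication-type and the 9 replacement histone genes, and the ratio of the second sum to the first, in the 4 groups; points are libraries, bars mean ± SD. At day 21 the LLC libraries (133 to 182 CPM) lie below all PBS libraries (302 to 368 CPM) for replication-type genes, while the replacement sums overlap.

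Split by histone family on the TPM scale, the group means showed the same contrast in each family with both classes except H1. Summed over the replacement genes, TPM at day 21 overlapped between the groups, at 858 to 1071 with PBS and 922 to 1450 with LLC. LLC libraries 1 and 3 held 1442 and 1450 TPM, and LLC libraries 2, 4 and 5 held 922, 972 and 951 TPM. Replication-type H2A messages averaged 336 ± 57.2 TPM (SD, n = 4) with PBS and 158 ± 55.8 TPM (SD, n = 5) with LLC at day 21, and replacement H2A messages 210 ± 25.3 and 268 ± 89.9 TPM. Replication-type H3 averaged 22.5 ± 4.66 and 11.2 ± 6.99 TPM, and the H3.3 genes 606 ± 80.1 and 793 ± 185 TPM. Replication-type H4 averaged 49.9 ± 15.3 and 20.5 ± 8.96 TPM, and H2B 145 ± 7.75 and 92.2 ± 26.1 TPM. In the H1 family both classes had lower means with LLC, 74.9 ± 16.7 against 46.6 ± 12.4 TPM for the replication-type genes and 124 ± 20.3 against 85.7 ± 21.7 TPM for H1f0 and H1f10.

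Gene by gene, 13 replication-type genes could be tested at day 21 and all 13 had a negative log2 fold change, with a median of -1.26 and a range of -1.65 to -0.36. Over all 13564 genes tested the median was 0.02 and 48.1% were negative. The other 51 replication-type genes had too few reads for the filter, which a gene can pass through the group where it is higher, so these figures describe the genes that passed and not the class. Without the filter, 44 of 55 replication-type genes were negative and 11 were not, with a median of -1.07. In 10 of the 13, and in 2 replacement genes, all LLC libraries lay below all PBS libraries; 4.47% of all genes did so. By the edgeR test only H2bc4 passed the threshold, 1 of 22 histone genes, beside 0.0885% of all genes (12 of 13564). DESeq2 called 14 histone genes, 11 replication-type genes and H1f0 and H1f10 lower and H3f3b higher, in a setting in which it called 10.7% of all genes. With PBS library 4 left out, edgeR called 7 histone genes (H2bc4, H1f2, H1f4, H2ac18, H2ac19, H4c8 and H1f10, all lower) beside 9.3% of all genes, and 9 beside 7.18% of all genes when LLC libraries 1 and 3 were left out as well. It called 3 without LLC library 2 (0.709% of all genes), 2 without LLC library 5 (0.067%), and 0 without PBS library 1, 2 or 3 or LLC library 3 (at most 0.0373%).

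H2bc4 measured 83.0, 90.2, 87.8 and 88.0 CPM in the PBS libraries and 54.5, 49.4, 47.3, 41.7 and 46.4 CPM in the LLC libraries at day 21. The groups stood far apart against their spread, and PBS library 4, which differed from its group in macrophage markers, did not differ here. The fold change was -0.89 ± 0.10 on the log2 scale (SE; edgeR adjusted p = 0.0167). Over 17 alternative settings it ran from -0.93 to -0.74. The call was lost in 7 of them, with edgeR's replicate block, with limma on either TPM scale, and without PBS library 1, 2 or 3 or LLC library 3, and the adjusted p ran from 4.06e-14 to 0.133.

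H1f2, which encodes a linker histone that binds where DNA enters and leaves the nucleosome, measured 78.5, 62.8, 53.8 and 64.3 CPM with PBS and 40.8, 42.0, 35.1, 35.2 and 32.6 CPM with LLC. All LLC values lay below all PBS values, but the change of -0.82 ± 0.13 (log2, SE) did not pass (edgeR adjusted p = 0.0526). H2ac19 measured 85.3, 89.5, 74.6 and 59.4 CPM with PBS and 31.7, 31.8, 39.1, 20.8 and 39.0 CPM with LLC, at -1.27 ± 0.20 (log2, SE; edgeR adjusted p = 0.0526). Its twin H2ac18 stood at -1.65 ± 0.28 (log2, SE; edgeR adjusted p = 0.0526). Because the split of the pair is an estimate, their sum is the firmer value: 117, 114, 98.8 and 82.1 CPM with PBS and 38.1, 39.1, 47.6, 25.8 and 53.1 CPM with LLC, again without overlap.

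H4c8, an H4 gene, measured 13.9, 12.0, 8.74 and 6.64 CPM with PBS and 3.39, 2.16, 4.51, 2.41 and 4.80 CPM with LLC (log2 fold change -1.59 ± 0.32, SE; edgeR adjusted p = 0.0634). H3c14 measured 16.6, 11.5, 11.9 and 12.2 CPM with PBS and 8.41, 5.56, 5.80, 2.15 and 4.27 CPM with LLC (-1.33 ± 0.33, SE; edgeR adjusted p = 0.0801). Neither gene's groups overlapped and neither passed. The remaining replication-type genes of high level moved less: H2bc21 stood at -0.44 ± 0.19 and H2ac25 at -0.36 ± 0.18 (log2, SE), with edgeR adjusted p of 0.199 and 0.25 and overlapping groups. By annotated message end, the 8 tested genes that continue past the stem-loop had a median log2 fold change of -1.23, the 3 that end near it -1.59, and H2bc4 and H2bc21, with no match, -0.89 and -0.44.

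**Figure D3:**
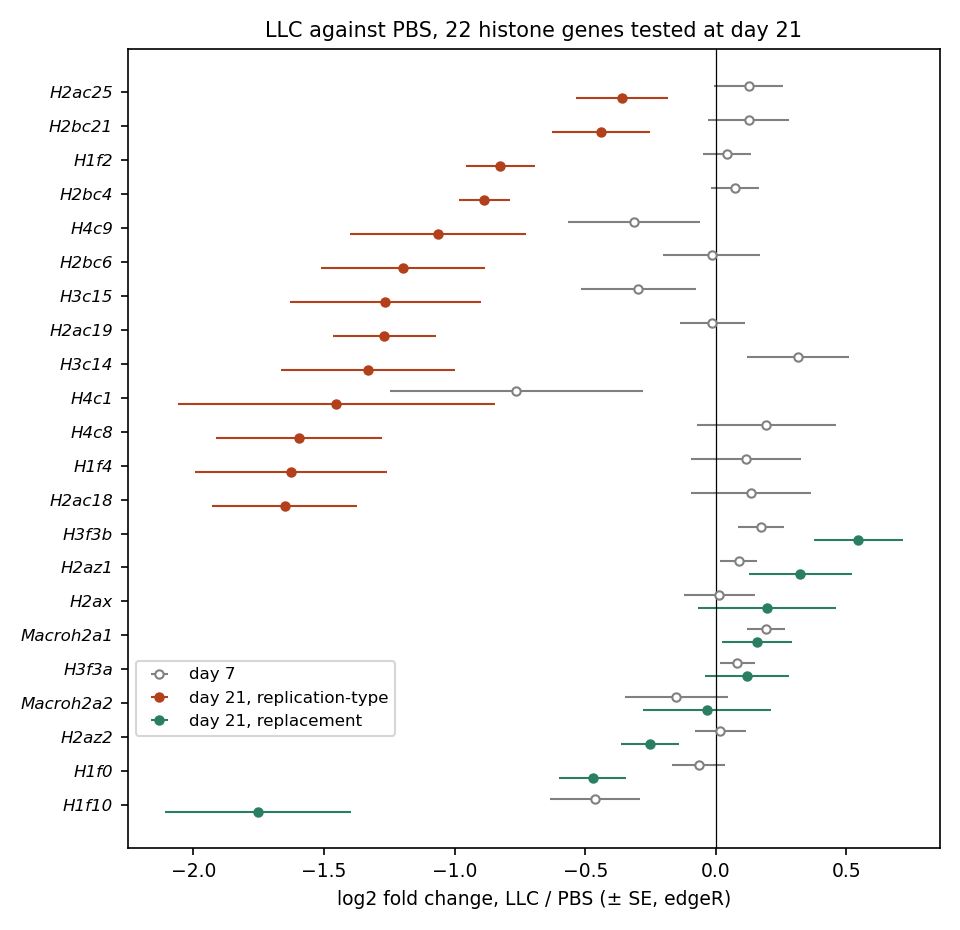
Log2 fold change (± SE, edgeR) of LLC over PBS for the 22 histone genes tested at day 21 (filled) and the same genes at day 7 (open). All 13 replication-type genes lie left of 0 at day 21, from -1.65 to -0.36, while replacement genes lie on both sides.

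Among the 9 replacement genes, 5 had positive and 4 negative log2 fold changes at day 21, with a median of 0.12. None of the 9 passed by edgeR, and 4 had an unadjusted edgeR p under 0.05, beside 3164 of all 13564 genes. DESeq2 called 3 replacement genes and limma 0. H3f3b measured 136, 141, 148 and 177 CPM with PBS and 230, 179, 222, 301 and 185 CPM with LLC, so that all LLC libraries were above all PBS libraries (0.55 ± 0.17 log2, SE; edgeR adjusted p = 0.116). H3f3a, which encodes the same H3.3 protein and was the highest histone gene of all at 524 TPM, stood at 0.12 ± 0.16 (log2, SE; edgeR adjusted p = 0.669) with overlapping groups. H2az1, 1 of the 2 H2A.Z genes, stood at 0.32 ± 0.20 and its partner H2az2 at -0.25 ± 0.11 (log2, SE), with edgeR adjusted p of 0.34 and 0.206. H2ax (0.20 ± 0.26), Macroh2a1 (0.16 ± 0.13) and Macroh2a2 (-0.03 ± 0.25) had edgeR adjusted p between 0.48 and 0.943. The sign of H2ax turned (-0.066) when PBS library 4 was left out together with LLC libraries 1 and 3, and that of Macroh2a2 under several settings given in the closing section.

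In LLC against PBS at day 21, the linker histone variants stood with the replication-type genes. H1f10 measured 25.4, 25.4, 26.1 and 13.4 CPM with PBS and 5.46, 11.1, 3.22, 5.19 and 9.07 CPM with LLC. The groups did not overlap although PBS library 4 lay close to the LLC libraries, and the log2 fold change of -1.75 ± 0.36 (SE) did not pass (edgeR adjusted p = 0.0638). Without PBS library 4 it passed. H1f0, which encodes H1.0, the linker histone of cells that have left the cycle, measured 129, 107, 110 and 103 CPM with PBS and 91.6, 96.1, 66.5, 78.5 and 78.6 CPM with LLC (-0.47 ± 0.13 log2, SE; edgeR adjusted p = 0.0951). Between day 7 and day 21 within LLC, both variants overlapped and neither passed. There H1f10 stood at -0.26 ± 0.28 and H1f0 at -0.11 ± 0.11 (log2, SE), with edgeR adjusted p of 0.663 and 0.643.

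**Figure D4:**
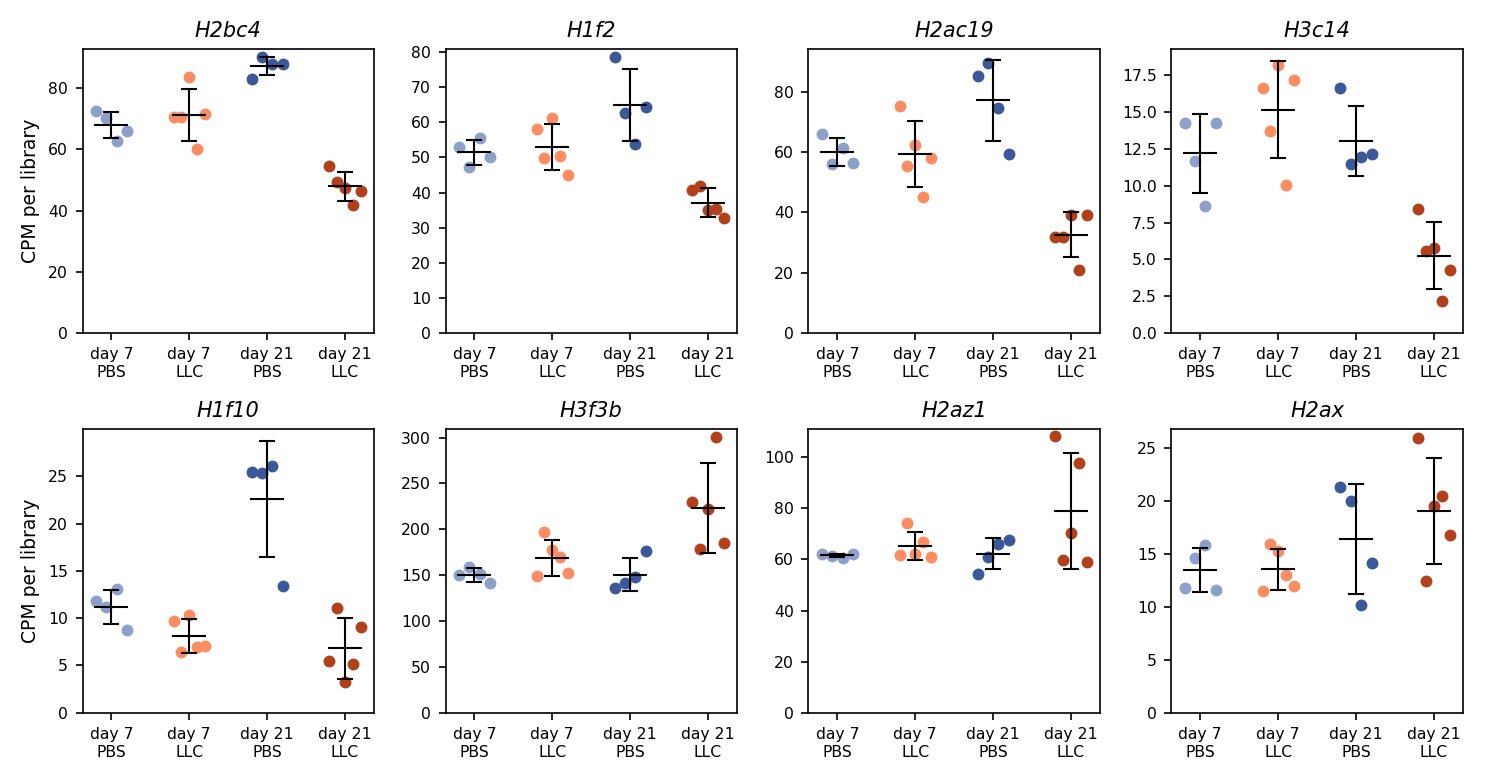
CPM per library of 4 replication-type genes (H2bc4, H1f2, H2ac19, H3c14) and 4 replacement genes (H1f10, H3f3b, H2az1, H2ax) in the 4 groups; points are libraries, bars mean ± SD. H2bc4 lies at 41.7 to 54.5 CPM with LLC at day 21 and at 83.0 to 90.2 CPM with PBS, while H2az1 and H2ax overlap between the groups.

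Whether the tumour effect differed between the days was tested directly. Of all 13975 genes, 21 had a more negative effect at day 21 past the threshold, and 0.415% were called in either direction. The LLC to PBS difference at day 21 was more negative than at day 7 for 19 of 25 histone genes tested. In 3 of the 25 this passed the threshold. They were H2bc4 (-0.94 ± 0.13 log2, SE; edgeR adjusted p = 0.00505), H1f2 (-0.84 ± 0.16; edgeR adjusted p = 0.0382) and H2ac19 (-1.23 ± 0.24; edgeR adjusted p = 0.0415), all replication-type. H2bc4 passed under all 23 alternative settings. H1f2 and H2ac19 passed under 13 and 12 of them: neither passed without PBS library 1 or 2 of day 21, without LLC library 1, 2 or 3 of day 7 or without any 1 of the 4 PBS libraries of day 7; H1f2 was also lost without LLC library 4 of day 21, and H2ac19 without PBS library 3 of day 21 or LLC library 5 of day 7. The count of histone genes was 8 without PBS library 4 of day 21, where 8.64% of all genes were called. It was 6 without LLC library 1 (1.2% of all genes) and 5 without LLC library 2 (2.65%) of day 21, and 5 without LLC library 4 of day 7 (0.287%). H2ac18 (-1.76 ± 0.38) and H1f4 (-1.72 ± 0.42), next in order of p, did not pass (edgeR adjusted p = 0.0534 and 0.0694). Of the 16 replication-type genes tested, 15 had a negative difference, with a median of -1.05, against 0.06 over the 9 replacement genes and 0.05 over all genes.

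The groups were also compared between days, where day and any batch of the day cannot be told apart. Within PBS, 22 of 25 histone genes tested had a higher level at day 21, beside 7111 of all 13975 genes. By the edgeR test 2 histone genes rose, beside 97 of all genes, and 3.21% of all genes were called in either direction. H2ac18 rose by 1.35 ± 0.29 (log2, SE; edgeR adjusted p = 0.0227), from 12.2, 10.5, 11.0 and 6.32 CPM to 31.3, 24.0, 24.2 and 22.7 CPM. The summed pair H2ac18 and H2ac19 was 62.7 to 78.1 CPM at day 7 and 82.1 to 117 CPM at day 21, without overlap, and the share of the pair assigned to H2ac18 was 10.1% to 15.7% and 21.2% to 27.6%. H2bc4 rose by 0.36 ± 0.10 (log2, SE; edgeR adjusted p = 0.0496), from 62.8 to 72.7 CPM at day 7 to the values above at day 21. Both calls were fragile: H2ac18 was lost without PBS library 2 or 4 of day 7 or PBS library 1, 2 or 3 of day 21, and H2bc4 without any of these, without PBS library 1 or 3 of day 7, with the replicate block and without the filter on low counts. H1f10 (1.01 ± 0.31), H2az2 (0.33 ± 0.10) and H1f2 (0.33 ± 0.12; log2, SE) did not pass (edgeR adjusted p between 0.0798 and 0.132).

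Within LLC, 18 of 25 histone genes tested had a lower level at day 21 than at day 7, beside 5902 of all 13975 genes. By the edgeR test 7 histone genes fell, all replication-type, beside 130 of all genes. In either direction 1.77% of all genes were called. H2bc4 fell by 0.57 ± 0.09 (log2, SE; edgeR adjusted p = 0.0143), from 70.6, 70.5, 83.8, 60.0 and 71.5 CPM at day 7. H1f4 fell by 1.72 ± 0.29 and H1f3, another linker histone gene, by 2.08 ± 0.49 from levels of 0.458 to 1.92 CPM (log2, SE; edgeR adjusted p = 0.0183 and 0.0431). H3c14 fell by 1.53 ± 0.27, H2bc6, an H2B gene, by 1.15 ± 0.24, H2ac19 by 0.87 ± 0.16 and H1f2 by 0.51 ± 0.11 (log2, SE), with edgeR adjusted p between 0.02 and 0.0333. In all 7 genes every LLC library of day 21 lay below every LLC library of day 7, as in 229 of all 13975 genes tested. The 7 were picked by a test on these same libraries, so this is no separate result. A fit of the 10 LLC libraries alone called none of the 7 and 2 genes in all, and single LLC libraries of either day ended the calls of H1f2, H1f3, H2ac19, H2bc6 and H3c14, so that the count was 2 to 9 with 1 library left out. It was 9 without LLC library 1 of day 21 (7.44% of all genes called) and 4 without LLC library 4 of day 21 (0.531%). The count was 2 without LLC library 1 or 2 of day 7 (0.143% and 0.108%), and 3 without LLC library 3 of day 7 (0.373%). The comparisons within PBS, within LLC and within each day share libraries and are not independent of each other.

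Genes of DNA replication, taken as a list, did not go down with the replication-type histone messages at day 21. Of 26 S phase and replication genes, 23 had a positive log2 fold change in LLC over PBS, with a median of 0.57. Their summed level overlapped between the groups, at 209 to 258 CPM with PBS and 231 to 728 CPM with LLC. By the mean log2 deviation of these genes, LLC library 1 stood highest of all 18 libraries (1.47) and LLC library 5 lowest (-0.325). None of the 26 passed by edgeR, and 6 had an unadjusted edgeR p under 0.05, beside 3164 of all 13564 genes. Mcm7, a subunit of the replicative helicase, was the one of smallest p (0.82 ± 0.19 log2, SE; edgeR adjusted p = 0.0751). All 19 mitosis genes had positive values too, with a median of 1.68, none of them past the threshold and none with an unadjusted p under 0.05. In their summed level only LLC library 1 lay above all 4 PBS libraries (32.2 to 61.0 CPM), and LLC libraries 4 and 5 (13.4 and 21.5 CPM) lay below all of them.

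LLC library 1 is where the S phase genes were highest, at 728 CPM against 231 to 320 CPM in the other 4 LLC libraries of day 21. Its replication-type histone sum was 182 CPM, against 133 to 181 CPM in those 4. H2az1 and H2ax, which were singled out here after their values were seen, had their highest values of all 18 libraries there, 108 and 26.0 CPM. H2az1 was nearly as high in LLC library 4 (97.8 CPM), where mitosis genes were lowest.

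**Figure D5:**
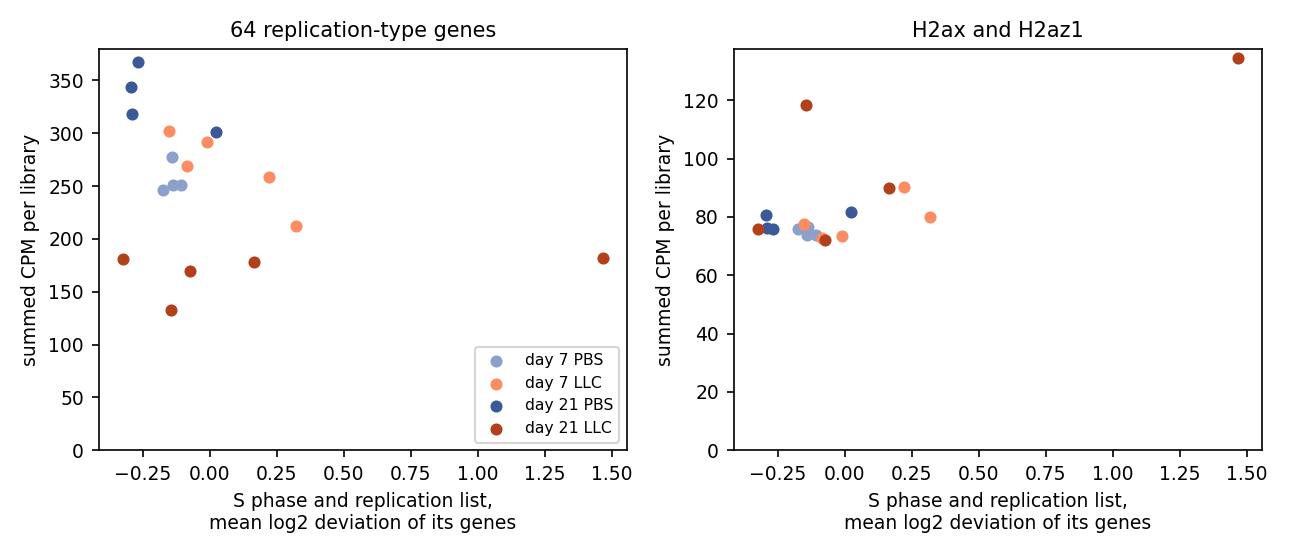
Each library's score on 26 S phase and replication genes (mean log2 deviation from the 18-library mean, horizontal) against the summed CPM of 64 replication-type genes (left) and of H2ax and H2az1 (right), coloured by group. LLC library 1 of day 21, at the far right, has a replication-type sum of 182 CPM, beside 133 to 181 CPM in the other 4 LLC libraries of that day.

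No tested gene of the lists for processing, carrying and exchanging histones passed the threshold at day 21. Of 17 genes tested for processing of the histone message, 13 had a positive log2 fold change in LLC over PBS at day 21. Their median was 0.16. None of the 17 passed by edgeR, and 3 had an unadjusted edgeR p under 0.05, beside 3164 of all 13564 genes at day 21. Casp8ap2, also called FLASH, which works in the cutting of the message, stood at 0.50 ± 0.15 and Slbp, the stem-loop binding protein, at 0.39 ± 0.17 (log2, SE; edgeR adjusted p = 0.109 and 0.21). Eri1, an exonuclease that trims the end of the message, stood at 0.60 ± 0.20 and Snrpd3, a core protein of small nuclear ribonucleoproteins, at 0.31 ± 0.14 (log2, SE; edgeR adjusted p = 0.122 and 0.217). Of 27 chaperone and exchange genes, 24 were positive, with a median of 0.24 and none past the threshold by edgeR (6 had an unadjusted p under 0.05). Npm1, a nucleolar histone chaperone (0.95 ± 0.23), Ssrp1, a subunit of the FACT complex (0.44 ± 0.11), Ep400, a subunit of the H2A.Z exchange complex TIP60 (0.46 ± 0.13), and Nasp, a chaperone of H3 and H4 (0.77 ± 0.24), had the smallest p, with edgeR adjusted p from 0.078 to 0.114.

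Cell type markers moved beside the histone genes at day 21, and their part in the result was not tested. Of 8 mast cell markers tested all 8 were higher with LLC and 4 rose (Cma1, Cpa3, Mcpt4 and Tpsb2), with sums of 31.0 to 51.1 CPM with PBS and 100 to 168 CPM with LLC. Of 5 erythroid genes all 5 were positive and 1, Alas2, rose, with sums of 354 to 861 and 1270 to 4446 CPM. Of 15 adipocyte markers, 12 had negative values and none passed (5 had an unadjusted edgeR p under 0.05, beside 3164 of all 13564 genes). Their sums overlapped, at 44264 to 58101 CPM with PBS and 26871 to 67481 CPM with LLC. LLC library 4, with the highest adipocyte sum, had the lowest replication-type histone sum. All 15 macrophage markers were positive and none passed (2 had an unadjusted edgeR p under 0.05), with sums of 212 to 2125 and 855 to 2739 CPM. PBS library 4, with 2125 CPM of macrophage and 14525 CPM of progenitor markers, had a replication-type histone sum of 302 CPM, the lowest of the PBS libraries and above every LLC library.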

How the data were processed

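The authors deposited 1 table per day with 9 libraries and 21899 genes each. Per the labels' protocols, poly(A) RNA was made into libraries with a kit for which no strand marking is named, so a gene and its antisense or overlapping neighbour may not be told apart. Per the submitters' processing notes, fastp 0.23.0, RSEM (no version given) and the builds mm10 and GRCm38 were used; for the aligner, no name is given in the sources used here. The expected counts that the authors deposited are whole numbers as rounded by them and were used as such; the deposited TPM values, which the authors scaled for length and total, served for levels between genes and in alternatives.

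Counts were tested with edgeR 4.0.16 (TMM, filterByExpr, quasi-likelihood F test) in R 4.3.3 over all genes that passed the filter, with Benjamini-Hochberg adjustment at 0.05. The SE was derived from the log2 fold change and its F value. LLC was compared with PBS from that day's libraries; comparisons between days and the difference of effects came from 1 fit of 4 group means. CPM values come from the TMM scale of all 18 libraries. The test was checked on simulated counts. Alternatives were DESeq2 1.42.0, its size factors, no filter, limma 3.58.1 on log2(TPM + 1) and log2(TPM + 0.1) with a mean TPM of at least 0.5, a replicate block, 1 joint fit, and left-out libraries. The closest pair of libraries within a group differed by a chi-square of 15.8 per gene, so none was counted as a duplicate. Deviations of same-numbered PBS and LLC libraries had correlations of 0.12 to 0.531 over 4 pairs at day 7, and of -0.273 to 0.302 at day 21. Differently numbered libraries were not compared and the titles name no pairing, so no pairing was concluded. The main fits hold none, and the replicate block is an alternative.

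Genes named are 11 fixed ones (H2bc4, H1f2, H1f0, H1f10, H2az1, H2az2, H2ax, H3f3a, H3f3b, Macroh2a1, Macroh2a2), the 8 replication-type genes of highest TPM, and in each comparison those past the threshold or, below 5 calls, the 5 of smallest p; of other lists, up to 4 of smallest p. The members and lists were chosen with earlier results of these data known. Lists tested but not described above gave 0 calls at day 21: progenitor or fibroblast (0 of 15), B cell (0 of 5), T or NK cell (0 of 12), endothelium (0 of 12), skeletal muscle (0 of 13) and epithelium (0 of 4), with 7, 5, 3, 5, 0 and 1 genes at an unadjusted edgeR p under 0.05. Over all 13564 genes tested at day 21, 3164 had such a p. Coordinates are GRCm38 from GENCODE vM21, matched by gene ID for all 98 genes. Python 3 scripts with pandas searched the stem-loop consensus and the shared 50-base stretches.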

Additional observations from a re-analysis of the deposited data

Results flagged for a closer look

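The effect of the tumour differed between the days, by the interaction test, for 3 histone genes. The difference of log2 fold changes, day 21 minus day 7, was -0.94 for H2bc4, -0.84 for H1f2 and -1.23 for H2ac19, with edgeR adjusted p of 0.00505, 0.0382 and 0.0415. All 5 LLC libraries of day 21 were below all 4 PBS libraries of that day in each of the 3 genes. The 3 were picked by a test that uses these same libraries, so this is no separate result. Of all genes tested at day 21, 4.47% did so.

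Single libraries lay far from the others of their group in 7 of 92 groups of values looked at, by a gap test (Dixon's, at 95%) that chance alone passes in about 1 of 20. PBS library 1 of day 7 was high in H1f0 (109 CPM against 87.6 to 87.7 CPM), in H2az2 (23.9 CPM) and in the replication-type sum (277 CPM against 247 to 251 CPM). PBS library 2 of day 7 was low in H1f3, at 0.717 CPM. In PBS at day 21, library 4 was low in H1f10, at 13.4 CPM against 25.4 to 26.1 CPM, and library 1 was high in H3c14, at 16.6 CPM against 11.5 to 12.2 CPM. LLC library 4 of day 21 was low in the replication-type sum, at 133 CPM against 170 to 182 CPM.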

How the results depend on the processing

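At day 7 the count of histone genes called was 0 under every alternative, the replicate block and each left-out library included. At day 21 the main count was 1; it was 14 with DESeq2, 14 in 1 fit of all 18 libraries, 9 without PBS library 4 and LLC libraries 1 and 3, 0 with the replicate block and 0 with limma on either TPM scale, and 0 to 7 with 1 library left out (7 without PBS library 4; 0 without PBS library 1, 2 or 3 or LLC library 3). The genes called over the whole table moved likewise, from 12 to 1545 with DESeq2, 2660 in the joint fit and 1 with the replicate block; the cause was not tested. For the difference between days the main count was 3, against 8 with DESeq2, 6 with the replicate block, 9 without those 3 libraries and 1 to 8 with 1 left out (0.415%, 5.09%, 1.04% and 8.49% of all genes in the first 4). Within PBS the main count was 2, against 4 with DESeq2, 1 without the filter and 1 with the replicate block. It was 0 to 3 with 1 library left out, and 4 without those 3 libraries (an alternative chosen after seeing the data). All genes called were 3.21% in the main fit, 7.38% with DESeq2, 1.77% without the filter and 3.75% with the replicate block. They were 0.29% to 12.0% with 1 library left out and 24.4% without those 3 libraries, so the higher counts say nothing of histone genes. Within LLC the main count was 7 (1.77% of all genes), against 0 in the fit of only the 10 LLC libraries (0.0148%). With 1 library left out it was 2 to 9 (0.108% to 7.44%). The log2 ratios of class sums at day 21 were -0.98 for replication-type and 0.15 for replacement genes, and -0.94 and 0.29 by summed TPM, which stayed within the spread between libraries. The limma fits on TPM moved the median of all genes at day 21 to 0.14 and 0.16; all 17 replication-type genes that passed the filter there were negative, against 44 of 55 without a filter on counts. Of 670 single-gene values under alternatives, 8 changed sign, none of a gene past the threshold: H2ax at day 21 was -0.066 without those 3 libraries, and Macroh2a2 was 0.27 there, 0.11 and 0.14 by limma with pseudocounts 1 and 0.1, and positive without PBS library 1 (0.03) or 4 (0.15) or LLC library 1 (0.066) or 3 (0.023), in a range of -0.17 to 0.15 with 1 library left out. Depth limits the low members: 51 of 64 replication-type genes were not tested at day 21.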
